A study of Rattus norvegicus with 30 samples.

Results

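Jejunum taken 24 h after a dose of the chemotherapy drug irinotecan was compared with jejunum taken 6 h after the same dose. The comparison rests on 4 of the 30 arrays in the series, chosen by their titles: 2 arrays at 24 h and 2 at 6 h. All rats were female and of the DA (Dark Agouti) strain, aged 10 weeks. Rats of both groups had received a single intraperitoneal injection of 200 mg/kg irinotecan under light halothane anaesthetic, so neither group was untreated. The study also held arrays of jejunum at 0 h (no irinotecan), 1 h and 72 h, and of stomach and colon at the same 5 times. Each array carried RNA pooled from 3 rats, 6 rats were used per time, and the piece of gut was the whole wall, with mucosa and muscle together. A p-value here therefore measures the spread between pools, not between rats, and 2 pools a group limit the precision. What equal replicate numbers share, if anything, is not stated in the labels.

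Irinotecan is a prodrug whose active metabolite traps topoisomerase I on DNA, so that strand breaks form when replication forks meet the trapped enzyme. The jejunal lining is renewed from dividing cells in the crypts, which makes it one of the tissues most exposed to such a drug. Around the crypts lies a stroma of fibroblasts, vessels and immune cells that lays down collagen and other matrix, and outside it smooth muscle drives gut movement.

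The values are log2 signals of Affymetrix probe sets, so a difference of 1 is a factor of 2. Of 31042 probe sets tested with limma on the 10 jejunum arrays, 278 differed between 24 h and 6 h at a Benjamini-Hochberg adjusted p under 0.05, which is 0.896%. Of these, 137 (0.441%) were higher at 24 h and 141 (0.454%) lower, and 50 of the 278 differed at least 2-fold, 19 upward and 31 downward. On all 278 both arrays at 24 h lay on the same side of both arrays at 6 h, as they did on 11066 of all probe sets tested (35.6%). The median change over all probe sets was −0.0015 on the log2 scale. At an unadjusted limma p under 0.05 there were 3566 probe sets, or 11.5% of all tested. The fit assumes the same spread in every group. The standard deviation of the difference between replicates was 0.340 at 24 h, against 0.132 to 0.180 at the other jejunum times. The limma p-values for 24 h against 6 h can therefore be too small. With only the 4 arrays at 6 h and 24 h 0 probe sets passed, and with array weights 37 did. "Rose" and "fell" below mean that a probe set passed the limma test at an adjusted p under 0.05, upward or downward from 6 h to 24 h.

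**Figure D1:**
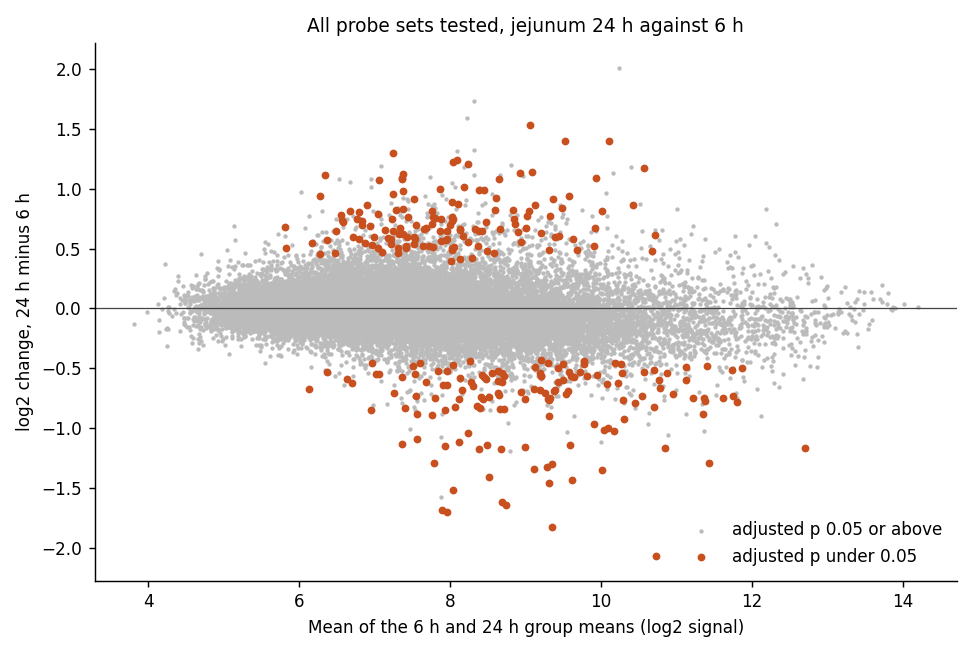
Log2 change from 6 h to 24 h (vertical axis) against the mean of both group means in log2 signal (horizontal axis) for each of the 31042 probe sets tested in the jejunum. The 137 probe sets that rose and the 141 that fell are coloured, and they lie on both sides of 0 across a wide range of levels.

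The markers matched the tissue label. The median level over 33 measured brush border genes, which digest and absorb nutrients on the villus surface, ran from 10.85 to 11.59 over the 10 jejunum arrays, against 6.74 to 7.04 over the stomach arrays and 7.58 to 8.50 over the colon arrays. Pancreatic enzyme genes stayed near the level of all probe sets, with list medians from 6.36 to 6.66 on the jejunum arrays. The 2 arrays at 24 h differed from each other more than those of any other jejunum time: their correlation over probe sets was 0.972, against 0.996 at 6 h, and the SD of their difference was 0.340 against 0.132. The median level of 24 smooth muscle genes was 10.76 on 24 h replicate 1 and 9.97 on replicate 2, beside 9.98 and 10.12 at 6 h. The median of 12 Paneth cell genes was 10.06 and 10.99 at 24 h and 11.50 and 11.71 at 6 h, but the median of their changes was −0.04, with 5 values above 0, 7 below and 1 call. The median of 14 antigen presentation genes was 9.67 and 10.68 at 24 h and 9.52 and 9.59 at 6 h. The gap between 3' and 5' GAPDH control probe sets, a sign of RNA integrity or labelling, was 0.82 on 24 h replicate 1 and −0.06 on replicate 2, the highest and lowest of the 10 jejunum arrays, with 0.38 and 0.18 at 6 h. In whole tissue a lower level can mean fewer cells of a type or less RNA per cell, and these cannot be told apart. When 24 h replicate 1 was left out, 756 probe sets (2.44%) were higher and 1201 (3.87%) lower, and without 24 h replicate 2 the counts were 1127 (3.63%) and 1180 (3.80%). All 278 were among the calls of both fits, in which the lone 24 h array is assumed to vary like the other groups. Without 6 h replicate 1 limma called 5 probe sets and without 6 h replicate 2 it called 0, with 2331 at an unadjusted p under 0.05.

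Genes of cell division were higher at 24 h than at 6 h. Of 33 measured mitosis genes 9 rose and none fell, all 33 values were above 0, and the list median was 0.56 on the log2 scale. Ccnb2, a B-type cyclin that takes cells into mitosis, read 7.68 and 7.58 at 6 h and 8.65 and 9.03 at 24 h. It rose 2.31-fold (log2 change 1.21, SE 0.15, limma adjusted p = 0.014), and 24 h replicate 2 lay between the untreated arrays, at 9.17 and 9.0, with replicate 1 below them. Its promoter and those of Cdkn3 and Top2a are printed further on because cell-cycle promoters carry known motifs. Cdkn3, a phosphatase acting on cyclin-dependent kinases, read 7.58 and 7.72 at 6 h and 8.28 and 8.55 at 24 h and rose 1.70-fold (0.77, SE 0.11, adjusted p = 0.020). Ccna2, the cyclin of S phase and G2, read 7.30 and 7.42 at 6 h and 8.37 and 7.99 at 24 h and rose 1.76-fold (0.82, SE 0.13, adjusted p = 0.031). In both genes every 24 h array was above every 6 h array, and on all 278 called probe sets the arrays of the times did not overlap.

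The other members that rose serve chromosome handling. Cenpf, a kinetochore protein, read 7.73 and 7.60 at 6 h and 8.56 and 8.27 at 24 h and rose by 0.75 (adjusted p = 0.020). Top2a, the topoisomerase that untangles chromosomes, read 8.24 and 8.41 at 6 h and 9.08 and 8.91 at 24 h and rose by 0.67 (adjusted p = 0.030), with 0.34 on a second probe set that did not pass. Bub1, a spindle checkpoint kinase, and Nuf2, part of the kinetochore's microtubule clamp, both rose by 0.58. Birc5, or survivin, rose by 0.50, and Ect2, which sets the cleavage furrow, rose by 0.72 with an adjusted p of 0.0496, close to the threshold. Ccnb1, the other main B-type cyclin, read 7.86 and 7.77 at 6 h and 8.25 and 8.78 at 24 h, a change of 0.70 that did not pass (adjusted p = 0.196). The list median was 0.58 without 24 h replicate 1 and 0.45 without 24 h replicate 2. It was 0.51 without 6 h replicate 1 and 0.60 without 6 h replicate 2.

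Few replication genes passed the test. Of 30 measured DNA replication genes 1 rose, none fell, and the median was 0.05. The 1 that rose was Pola1, the catalytic subunit of the polymerase that starts DNA strands. It read 6.63 and 6.58 at 6 h and 7.16 and 7.13 at 24 h, beside 7.54 and 7.43 at 0 h, and rose 1.46-fold (0.54, SE 0.08, limma adjusted p = 0.020). Mcm5, part of the replicative helicase, changed by 0.12 (adjusted p = 0.728), and Pcna, the polymerase clamp, by −0.46 (adjusted p = 0.314), with 10.82 and 11.07 at 6 h and 10.22 and 10.75 at 24 h. The difference between the mitosis and replication lists was not tested. Of 14 measured genes of the crypt base 1 rose, Hopx, a marker of slowly cycling crypt cells, by 0.48 (adjusted p = 0.044). Lgr5, the marker of active stem cells, was below the median probe set at 6.45 and 6.44 at 6 h and 6.75 and 6.45 at 24 h, and its change of 0.16 did not pass (adjusted p = 0.726). The crypt base median was 0.32, or 0.05 without 24 h replicate 1.

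The promoters of the mitosis genes were searched for the letters of the cell cycle homology region, TTTGAA, and of the CCAAT box, on both strands of the 250 bases before each RefSeq start in rat build GRCr8. The table held promoters of 29 of the 33 mitosis genes. Of their 31 promoters 16 (51.6%) held TTTGAA, against 16.2% of all 33469 promoters in the table, and 24 (77.4%) held CCAAT, against 34.0%. The last 150 bases before the start are shown for 3 members that rose, 5' to 3' on the gene's strand, with both motifs in capitals wherever they occur on either strand (a match on the other strand reads TTCAAA or ATTGG). They lie at chr8:79981659-79981808 (minus strand), chr15:22502236-22502385 (plus, the first of 2 listed promoters) and chr10:84473094-84473243 (minus).
Ccnb2: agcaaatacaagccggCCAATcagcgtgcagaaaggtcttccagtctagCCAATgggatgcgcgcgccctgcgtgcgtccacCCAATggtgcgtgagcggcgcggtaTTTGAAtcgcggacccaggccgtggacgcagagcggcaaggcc
Cdkn3: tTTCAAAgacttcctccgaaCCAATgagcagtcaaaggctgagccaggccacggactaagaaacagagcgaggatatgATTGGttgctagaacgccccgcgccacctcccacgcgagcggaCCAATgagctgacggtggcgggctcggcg
Top2a: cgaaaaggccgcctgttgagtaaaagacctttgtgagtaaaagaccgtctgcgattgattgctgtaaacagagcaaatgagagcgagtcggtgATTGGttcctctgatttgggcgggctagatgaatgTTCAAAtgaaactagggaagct
In Ccnb2 the TTTGAA match lay 43 to 38 bases before the start, below 3 CCAAT matches, and in Top2a it lay 22 to 17 bases before the start with 1 CCAAT match at 57 to 53. In Cdkn3 the TTTGAA match lay at 149 to 144, above its 3 CCAAT matches. A match of letters is a description and not a binding site.

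No gene on the p53 or apoptosis lists passed the test. Irinotecan's target Top1 read 9.98 and 9.90 at 6 h and 10.06 and 9.64 at 24 h. None of 22 measured p53 target genes passed the limma test in either direction, 2 had an unadjusted p under 0.05, and their median was −0.14. Without 24 h replicate 1 none rose and 1 fell, and without replicate 2, 1 rose and 3 fell. Cdkn1a, the p53-induced brake on the cell cycle, read 9.90 and 9.89 at 6 h and 9.98 and 9.20 at 24 h (change −0.30, limma adjusted p = 0.674). Mdm2, which marks p53 for destruction, read 9.22 and 9.25 at 6 h and 8.96 and 9.10 at 24 h (−0.20, adjusted p = 0.414), so its arrays did not overlap although it did not pass. Ccng1, another p53 target, read 10.11 and 10.14 at 6 h and 9.69 and 10.52 at 24 h, so its 24 h arrays lay on both sides of the 6 h arrays. The untreated levels of these genes were 8.89 and 9.07, 8.71 and 8.84, and 8.61 and 8.49. Of 25 apoptosis regulators none passed, 9 had an unadjusted p under 0.05, and the median was −0.09. Without 24 h replicate 1, 2 rose and 3 fell, and without replicate 2, 1 rose and 3 fell.

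Matrix genes of the stroma were higher at 24 h. Of 37 measured fibroblast and matrix genes 7 rose and none fell, all 37 values were above 0, and the median was 0.46. Postn, periostin, a matrix protein of wounds and growing stroma, read 8.73 and 8.92 at 6 h and 10.40 and 10.06 at 24 h. It rose 2.64-fold (1.40, SE 0.12, limma adjusted p = 0.0067), and no array at 0, 1 or 72 h was as high as those at 24 h. Col3a1, a fibrillar collagen, read 9.20 and 9.61 at 6 h and 10.60 and 11.01 at 24 h and also rose 2.64-fold (1.40, SE 0.22, adjusted p = 0.031). Its levels at 72 h, 11.83 and 11.64, were higher again. Col1a2, a chain of type I collagen, rose on both of its probe sets, by 1.23 (adjusted p = 0.022) and 0.92 (adjusted p = 0.040). Col6a3 rose by 0.91, Fn1 (fibronectin) by 0.94, Tnc (tenascin C) by 1.08 and the basement membrane linker Nid1 by 0.82, each with an adjusted p between 0.020 and 0.0474. A second, dimmer probe set of Nid1 changed by −0.10 and one of Col6a3 by 0.41, and neither passed.

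Several proteins that build or guard the matrix rose too. Serpinh1, the collagen chaperone HSP47, had the largest rise of any named gene: it read 8.33 and 8.26 at 6 h and 9.88 and 9.77 at 24 h, 2.90-fold higher (1.53, SE 0.14, adjusted p = 0.00678). Its second probe set, near background at about 6, changed by 0.17. Timp1, an inhibitor of matrix metalloproteases, read 7.67 and 7.87 at 0 h, 8.95 and 9.17 at 6 h and 9.94 and 9.86 at 24 h, and rose 1.79-fold between the last pair of times (0.84, SE 0.14, adjusted p = 0.037). It was the 1 of 29 proteases and inhibitors to pass. Timp2 changed by 0.65 (adjusted p = 0.067) and did not pass. Vim, vimentin, the intermediate filament of mesenchymal cells, read 9.32 and 9.45 at 6 h and 10.56 and 10.39 at 24 h and rose by 1.09 (adjusted p = 0.00715). The scavenger receptor Colec12 rose by 1.07 and Srpx, a sushi repeat protein, by 1.00.

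Smooth muscle and vessel markers were measured beside these. Smtn, smoothelin, a marker of contractile smooth muscle, read 8.27 and 8.46 at 6 h and 9.73 and 9.27 at 24 h and rose 2.20-fold (1.13, SE 0.16, adjusted p = 0.020). Its second probe set rose by 0.60 (adjusted p = 0.046). Smtn was the 1 of 24 smooth muscle genes to pass, and the list median was 0.28, or −0.07 without 24 h replicate 1 and 0.76 without replicate 2. Ppp1r14a, an inhibitor of myosin phosphatase, rose by 1.12, and Slc8a1, a sodium-calcium exchanger, by 1.30, while a second probe set of Slc8a1 near background changed by −0.03. Clmp, an adhesion protein needed for gut development, read 7.38 and 7.56 at 6 h and 9.07 and 8.34 at 24 h and rose by 1.24 (adjusted p = 0.043), while its second probe set changed by 0.63 (adjusted p = 0.188). For Smtn, Ppp1r14a, Slc8a1 and Clmp 24 h replicate 1 was the higher array, as it was for the smooth muscle list. For the matrix list the order was the other way: its median was 0.62 without 24 h replicate 1 and 0.25 without 24 h replicate 2. Single genes varied in this order: Postn, Serpinh1, Vim and Timp1 were higher on replicate 1, and Col3a1 on replicate 2. The part of cell mixture in these changes was not tested. Of 23 vascular genes 1 rose, the pericyte gene Rgs5, by 0.86 (adjusted p = 0.046), and of 21 macrophage genes 1 rose, Spp1 (osteopontin), by 0.60 (adjusted p = 0.041), from 6.74 and 6.66 to 7.25 and 7.35.

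**Figure D2:**
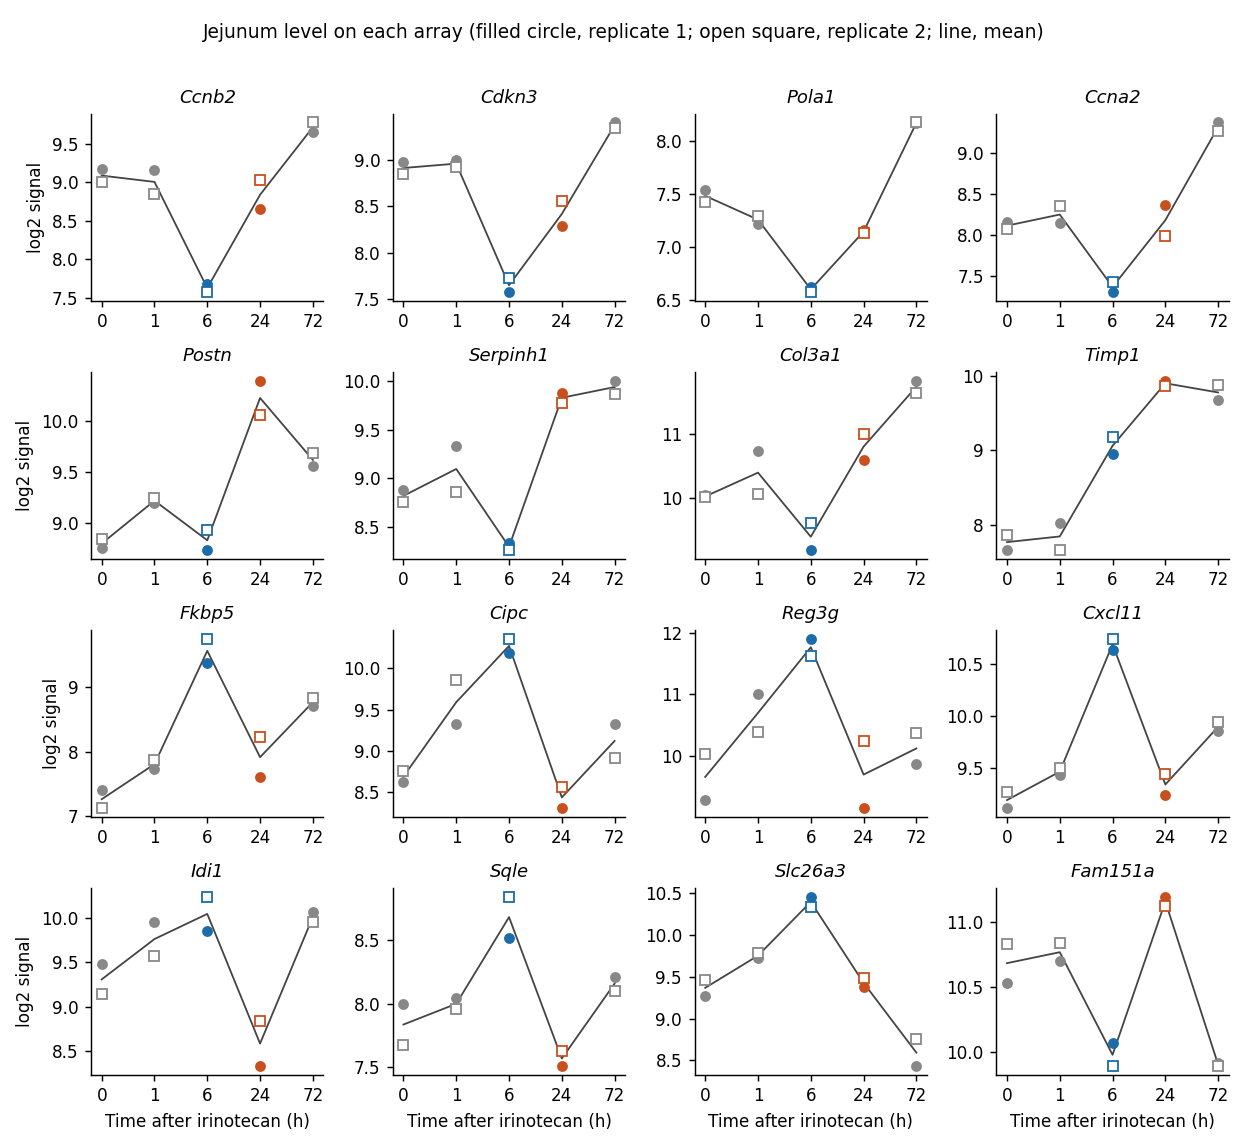
Log2 signal of 16 genes on each jejunum array (vertical axis) over the course from 0 to 72 h after irinotecan (horizontal axis, the 5 times evenly spaced). The 6 h arrays are blue and the 24 h arrays orange. All 16 genes passed the limma test, and on every probe set that passed the arrays of these times do not overlap. The same held for 35.6% of all probe sets tested.

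Of 34 NF-kB and inflammatory genes 2 fell and none rose, with 17 values above 0, 17 below and a median of −0.0017. Of 26 acute phase genes 2 fell and 1 rose, with a median of −0.12. Reg3g, a lectin that kills Gram-positive bacteria, read 11.90 and 11.62 at 6 h and 9.14 and 10.24 at 24 h. It fell 4.20-fold, the largest fall of any named gene (−2.07, SE 0.37, limma adjusted p = 0.044), and its 24 h arrays lay 1 below and 1 above the untreated arrays at 9.28 and 10.02. Reg3b, a related lectin, read 13.31 and 13.26 at 6 h and 11.96 and 12.28 at 24 h and fell by 1.17 on the log2 scale (adjusted p = 0.042). Its signals are near the top of the array's range. Neither the Reg3g nor the Reg3b fall passed with quantile normalization, all 30 arrays, array weights or the replicate number as a block. Duox2, which makes hydrogen peroxide at the epithelial surface, read 8.60 and 9.0 at 6 h and 7.29 and 7.27 at 24 h, beside 7.28 and 7.54 at 0 h, and fell 2.86-fold (−1.52, SE 0.15, adjusted p = 0.00685).

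Chemokines of lymphocytes were among the genes that fell. Cxcl11, which draws T cells, read 10.64 and 10.75 at 6 h and 9.24 and 9.44 at 24 h and fell 2.55-fold (−1.35, SE 0.10, adjusted p = 0.00554). Ccl20, the ligand of CCR6 on lymphocytes and dendritic cells, read 10.24 and 10.44 at 6 h and 8.98 and 8.83 at 24 h and fell 2.70-fold (−1.43, SE 0.22, adjusted p = 0.026). These were the 2 calls on the inflammatory list. Cxcl10 read 8.38 and 8.97 at 6 h and 6.63 and 7.57 at 24 h, a change of −1.57 that did not pass (adjusted p = 0.062). Gem, a small GTPase of the immediate early list, fell by 1.14 and was the 1 of 26 to pass. None of 28 interferon-induced genes (5 at an unadjusted p under 0.05) and none of 12 neutrophil genes (0 at that level) passed.

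None of 37 TGF-beta, BMP and Wnt genes passed, with a median of 0.00 and 6 at an unadjusted limma p under 0.05. Outside that list, Bmp3, an antagonist of other bone morphogenetic proteins, read 8.81 and 8.82 at 6 h and 8.03 and 8.08 at 24 h and fell by 0.76 (adjusted p = 0.016). Grem1, a secreted BMP antagonist of the stroma, read 10.00 and 10.19 at 6 h, 9.18 and 9.22 at 24 h and 8.0 and 7.69 at 0 h. Its change of −0.90 did not pass (adjusted p = 0.077).

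Genes that respond to glucocorticoids were represented by 20 measured members, of which 2 fell and 1 rose, with 16 values below 0 and a median of −0.27. Fkbp5, a chaperone that dampens the glucocorticoid receptor, read 9.37 and 9.75 at 6 h and 7.60 and 8.23 at 24 h, beside 7.40 and 7.12 at 0 h. It fell 3.13-fold (−1.65, SE 0.20, limma adjusted p = 0.014), and its second probe set fell by 1.15 (adjusted p = 0.018). Cebpd, a transcription factor of the acute phase, read 8.94 and 9.0 at 6 h and 7.52 and 8.07 at 24 h and fell by 1.17 (adjusted p = 0.029), while its other probe sets changed by −0.76 and −0.09 and did not pass. Mt2A, a metallothionein that binds zinc, read 11.66 and 11.49 at 6 h and 10.48 and 10.90 at 24 h (−0.89, adjusted p = 0.071). Angptl4, an inhibitor of lipoprotein lipase that fatty acids also induce, was the 1 that rose, from 8.47 and 8.55 to 9.17 and 9.25 (0.70, adjusted p = 0.045).

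Of 20 measured clock genes 1 fell and none rose, with 8 values above 0, 12 below and a median of −0.12. That 1 call was lost with the replicate number as a block. Cipc, outside the list, a repressor that binds CLOCK, read 10.18 and 10.36 at 6 h and 8.31 and 8.57 at 24 h. It fell 3.55-fold (−1.83, SE 0.19, limma adjusted p = 0.00777), to just below the untreated 8.63 and 8.76. Noct, nocturnin, also outside it, a phosphatase under clock control, read 9.74 and 9.84 at 6 h and 8.27 and 8.64 at 24 h and fell 2.53-fold (−1.34, SE 0.23, adjusted p = 0.039). Per3, a period gene, read 7.82 and 7.84 at 6 h and 7.18 and 6.81 at 24 h and fell by 0.83 (adjusted p = 0.034), the 1 call on the list. A dim second probe set of Per3 changed by −0.18. Nr1d2, the receptor REV-ERB beta, changed by −1.19 on its brightest probe set (adjusted p = 0.083), and its other probe sets fell by 1.15 (adjusted p = 0.014) and 0.53 (adjusted p = 0.029). Dbp, an output gene of the clock, changed by −0.75 (adjusted p = 0.182) and Nfil3, which acts on the same sites as a repressor, by 0.66 (adjusted p = 0.094). The labels give no hour of day for dosing or killing, so time after the dose and time of day cannot be told apart. The E-box letters CACGTG lay in 4 of 19 promoters of 17 clock genes (21.1%), against 5.59% of all promoters, and the D-box letters TTATGTAA in 1 (5.26%), against 0.828%. Per3's promoter held neither in that window.

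**Figure D3:**
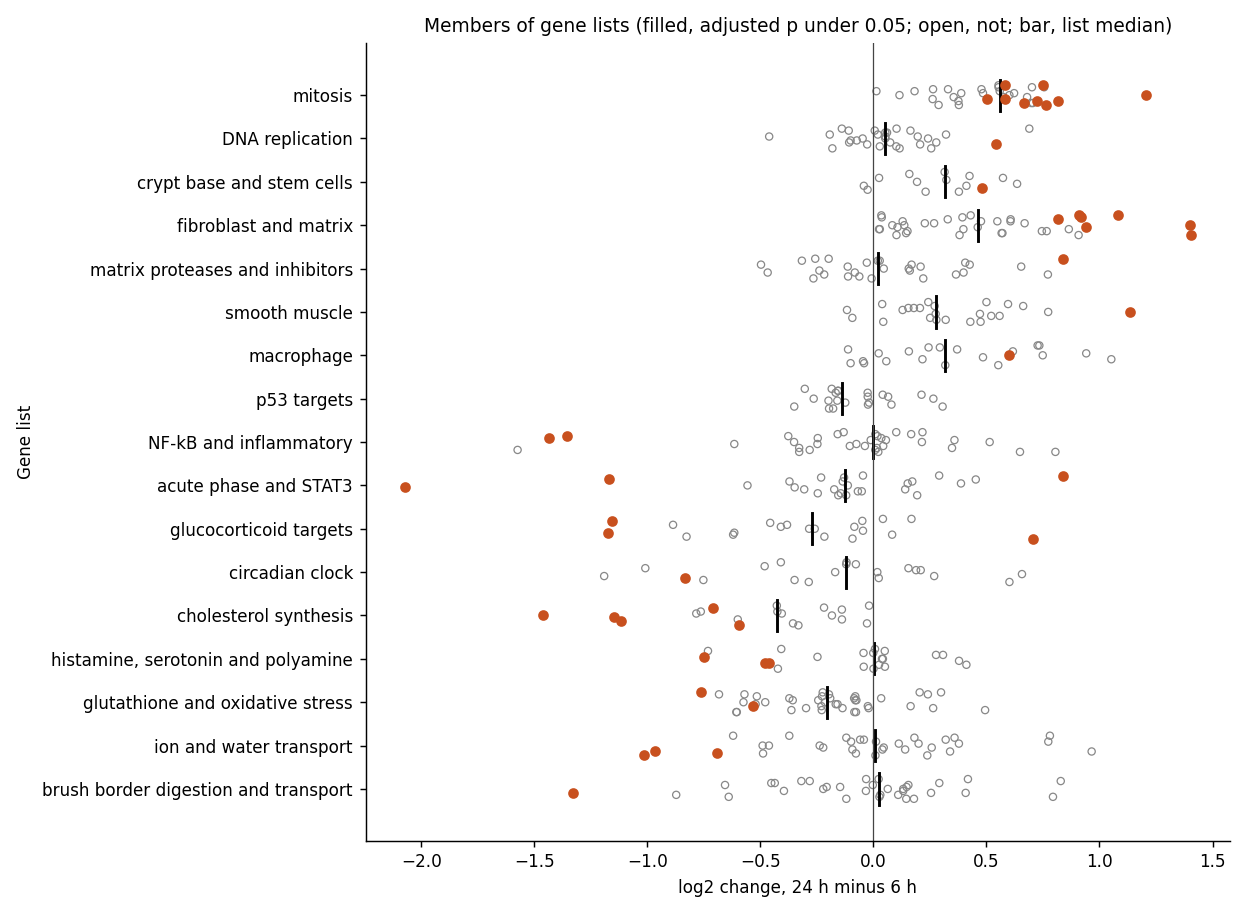
Log2 change from 6 h to 24 h (horizontal axis) of each measured member of 17 gene lists (vertical axis); filled points passed the limma test at an adjusted p under 0.05, open points did not, and bars are list medians. All mitosis and all fibroblast and matrix values lie above 0 and all cholesterol synthesis values below it.

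Signals of sterol synthesis genes were lower at 24 h. Of 20 measured cholesterol synthesis genes 5 fell and none rose, all 20 values were below 0, and the median was −0.43. Idi1, which interconverts the isoprene building blocks, read 9.85 and 10.24 at 6 h and 8.33 and 8.84 at 24 h. It fell 2.75-fold (−1.46, SE 0.21, limma adjusted p = 0.020), below the untreated 9.48 and 9.14, and its second probe set fell by 1.04 (adjusted p = 0.00554). Sqle, squalene epoxidase, a control point of the pathway, read 8.52 and 8.85 at 6 h and 7.51 and 7.63 at 24 h and fell 2.17-fold (−1.12, SE 0.13, adjusted p = 0.014). Msmo1, which removes methyl groups from sterols, read 9.98 and 10.34 at 6 h and 9.01 and 9.01 at 24 h and fell 2.21-fold (−1.15, SE 0.15, adjusted p = 0.016). For each of these the arrays of the times did not overlap, as on all 278 called probe sets.

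Hsd17b7, a sterol ketoreductase of the pathway, fell by 0.71 (adjusted p = 0.027) and by 0.85 on its second probe set (adjusted p = 0.016). Acat2, which joins acetyl-CoA units at the start of the pathway, read 8.70 and 8.85 at 6 h and 8.21 and 8.15 at 24 h and fell by 0.59 (adjusted p = 0.022). Cyp51, a sterol demethylase, changed by −0.76 on its brighter probe set (adjusted p = 0.208) and by −0.84 on the other, which passed (adjusted p = 0.00685) and was looked up after its list value was seen. The list median was −0.45 without 24 h replicate 1 and −0.54 without 24 h replicate 2. Fads3, a fatty acid desaturase-like enzyme outside the list, read 9.06 and 9.40 at 6 h and 7.73 and 7.91 at 24 h and fell 2.66-fold (−1.41, SE 0.12, adjusted p = 0.0067).

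The sterol promoters were searched for CACNCCAC, letters of the sterol response element, and for CCAAT, in the same way. The table held 1 promoter each for 16 of the 20 genes. CACNCCAC lay in 3 of them (18.8%), against 4.89% of all promoters, and CCAAT in 13 (81.2%), against 34.0%. The 150 bases before the start are shown for the 4 genes that fell and had a promoter in the table, with both motifs in capitals, at chr17:66547525-66547674 (minus strand), chr16:29746963-29747112 (plus), chr1:50100690-50100839 (plus) and chr13:84722755-84722904 (minus).
Idi1: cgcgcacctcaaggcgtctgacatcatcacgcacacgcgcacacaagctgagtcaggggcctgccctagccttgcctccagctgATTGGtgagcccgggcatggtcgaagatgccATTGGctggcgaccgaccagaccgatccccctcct
Msmo1: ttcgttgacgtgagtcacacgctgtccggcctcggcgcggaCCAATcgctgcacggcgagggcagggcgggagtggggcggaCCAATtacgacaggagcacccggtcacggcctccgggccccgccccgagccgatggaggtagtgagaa
Acat2: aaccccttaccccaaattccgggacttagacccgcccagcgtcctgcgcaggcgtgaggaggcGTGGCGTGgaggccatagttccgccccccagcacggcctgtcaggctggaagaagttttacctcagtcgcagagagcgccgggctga
Hsd17b7: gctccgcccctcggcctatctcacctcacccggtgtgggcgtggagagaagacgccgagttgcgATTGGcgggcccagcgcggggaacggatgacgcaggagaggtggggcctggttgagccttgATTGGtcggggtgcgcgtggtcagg
Idi1, Msmo1 and Hsd17b7 each held 2 CCAAT matches and no CACNCCAC match in this stretch. Acat2 held 1 CACNCCAC match, read on the other strand, 87 to 80 bases before the start and no CCAAT match.

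Transport genes of the villus moved unevenly. Of 33 ion and water transport genes 3 fell, none rose, and the median was 0.01. Slc26a3, the chloride-bicarbonate exchanger that absorbs chloride, read 10.45 and 10.33 at 6 h and 9.37 and 9.48 at 24 h, beside 9.27 and 9.46 at 0 h, and fell 1.95-fold (−0.97, SE 0.12, limma adjusted p = 0.014). Car4, a membrane carbonic anhydrase, read 10.50 and 10.59 at 6 h and 9.23 and 9.83 at 24 h and fell by 1.01 (adjusted p = 0.041), with −0.07 on a dim second probe set. Slc4a7, a sodium-bicarbonate carrier, fell by 0.69 (adjusted p = 0.022), with −0.42 on a second probe set that did not pass.

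Nutrient carriers on the brush border gave 1 fall among 33 genes, with a median of 0.02. Slc2a5, the fructose carrier GLUT5, read 9.83 and 10.08 at 6 h and 8.59 and 8.66 at 24 h and fell 2.51-fold (−1.33, SE 0.23, adjusted p = 0.040). Slc6a14, outside that list, carries neutral and basic amino acids. It read 8.90 and 8.55 at 6 h and 7.24 and 6.86 at 24 h, below 7.79 and 7.81 at 0 h. It fell 3.21-fold (−1.68, SE 0.18, limma adjusted p = 0.010). Cldn2, a claudin that forms cation and water pores, read 9.08 and 9.42 at 6 h and 7.74 and 8.84 at 24 h, and its change of −0.96 did not pass (adjusted p = 0.234). None of 30 junction genes passed, nor any of 25 lipid absorption genes, with 6 and 4 at an unadjusted p under 0.05.

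Of 21 histamine, serotonin and polyamine genes 3 fell and none rose, with 11 values above 0, 10 below and a median of 0.00. The 3 that fell, Sat1, Odc1 and Azin1, belong to polyamine turnover. Sat1, which marks polyamines for export, read 12.05 and 11.93 at 6 h and 11.25 and 11.24 at 24 h and fell by 0.75 (adjusted p = 0.029). Odc1, the first enzyme of polyamine synthesis, read 11.63 and 11.67 at 6 h and 11.16 and 11.18 at 24 h, beside 11.28 and 11.17 at 0 h, and fell by 0.48 (adjusted p = 0.040). Azin1, which protects that enzyme from its inhibitor, fell by 0.46 (adjusted p = 0.045), with −0.41 and 0.01 on its other probe sets.

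Conjugating enzymes were lower in a few cases. Sult1a1, a phenol sulfotransferase, read 8.86 and 9.26 at 6 h and 7.61 and 8.23 at 24 h and fell 2.20-fold (−1.14, SE 0.19, adjusted p = 0.039), the 1 of 26 P450 and conjugation genes to pass. Sult6b2, a related sulfotransferase outside that list, fell 2.45-fold (−1.29, SE 0.18, limma adjusted p = 0.020). Of 40 glutathione and oxidative stress genes 2 fell, the glutathione transferases Gsta4, by 0.76 (adjusted p = 0.012), and Gsta3, by 0.53 (adjusted p = 0.030), and the median was −0.21. For Gsta4 the 6 h arrays (10.70 and 10.65) were close to the untreated ones (10.90 and 10.88), and the 24 h arrays were lower, at 9.82 and 10.01.

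Single genes of other lists rose. Cmss1, a protein of the small ribosomal subunit's processing, rose by 0.96 (adjusted p = 0.020), the 1 of 34 ribosome biogenesis genes to do so. Phgdh, the first enzyme of serine synthesis, rose by 0.60, the 1 of 22 ATF4 and amino acid stress genes, and Creld2, an endoplasmic reticulum protein, by 0.60, the 1 of 27 stress genes of that organelle. Creld2's promoter held both CCAAT and the stress element core CCACG, which lay in 90.9% and 81.8% of the 22 promoters of that list and in 34.0% and 27.2% of all promoters. Lratd1, a gene of the LRAT domain family, fell by 1.30 (adjusted p = 0.014). None of 28 ribosomal protein genes (median −0.15), 30 proteasome genes (−0.20) or 36 respiratory chain genes (−0.27) passed, with 0, 5 and 11 at an unadjusted p under 0.05. Those medians were 0.01, −0.07 and −0.08 without 24 h replicate 1 and −0.37, −0.41 and −0.39 without replicate 2. The acute phase calls were Timp1, Reg3g and Reg3b, Reg3g was also the 1 of 12 Paneth cell genes to pass, and Angptl4 the 1 of 25 fatty acid oxidation genes. In all, 24 of the 48 lists had no member past the threshold. Besides those given above, these were antigen presentation (median 0.39), heat shock (0.16), B and plasma cells (0.16), T and NK cells (0.09), mast cells and eosinophils (0.08), EGF and IGF families (0.06), enteric neurons and glia (0.08), goblet cells (0.05), enteroendocrine (0.08), tuft cells (0.09), pancreatic acinar (0.05), erythroid (−0.03), adipocyte (−0.17) and mesothelium (0.00). Over the 532 entries of the 24 lists 85 had an unadjusted limma p under 0.05, beside 11.5% of all probe sets tested. The antigen presentation median was 0.52 without 24 h replicate 1 and −0.04 without replicate 2.

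A few of the jejunal changes differed from those in the other tissues when the difference itself was tested in a fit of all 30 arrays, in which tissues of the same rats are treated as independent. The change from 6 h to 24 h differed from the colon's on 12 probe sets (0.0387%) and from the stomach's on 3 (0.00966%). Fam151a, whose role is little studied, read 10.07 and 9.89 at 6 h and 11.19 and 11.12 at 24 h in the jejunum and rose 2.26-fold (1.17, SE 0.11, adjusted p = 0.00678). It read between 6.69 and 6.90 on the colon arrays at these times, and the difference of the changes was 1.08 (SE 0.16, adjusted p = 0.0136). Against the stomach the difference was 1.27 (SE 0.16, adjusted p = 0.00421). In both other tissues the gene was below the median probe set of its arrays.

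Hmgb3, a chromatin protein of the high mobility group, read 8.15 and 8.06 at 6 h and 8.79 and 8.72 at 24 h in the jejunum. In the colon it read 8.36 and 8.44 and then 8.14 and 8.23, and the difference was 0.87 (SE 0.13, adjusted p = 0.0136). Against the stomach it was 0.99 (adjusted p = 0.00421). Nrep, a regulator of neuronal regeneration, rose by 1.09 in the jejunum, from 6.79 and 6.84 to 8.04 and 7.78. It changed by −0.23 in the colon (difference 1.32, SE 0.21, limma adjusted p = 0.0275). In the stomach Nrep changed by 0.13, and its difference from the jejunum did not pass. Cipc read 10.53 and 10.81 at 24 h in the colon, after 10.62 and 10.60 at 6 h, so its fall in the jejunum differed by −1.88 (SE 0.28, adjusted p = 0.0136). Against the stomach, where it changed by −0.28, the difference of −1.55 did not pass (adjusted p = 0.158).

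The remaining differences that were named came from the other tissue. Tmem252, a small membrane protein, changed by 0.07 in the jejunum and by −1.50 in the stomach, a difference of 1.58 (SE 0.23, limma adjusted p = 0.0188). In the colon it changed by −0.70, and its difference from the jejunum did not pass. Gkn1, gastrokine, a secreted protein of the gastric surface, was between 5.88 and 6.26 on the jejunum arrays of both times and read 5.94 and 6.24 at 6 h and 10.14 and 9.89 at 24 h in the colon, beside 13.94 to 14.09 in the stomach. The difference of −4.03 (SE 0.55, adjusted p = 0.0136) therefore describes the colon arrays.

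**Figure D4:**
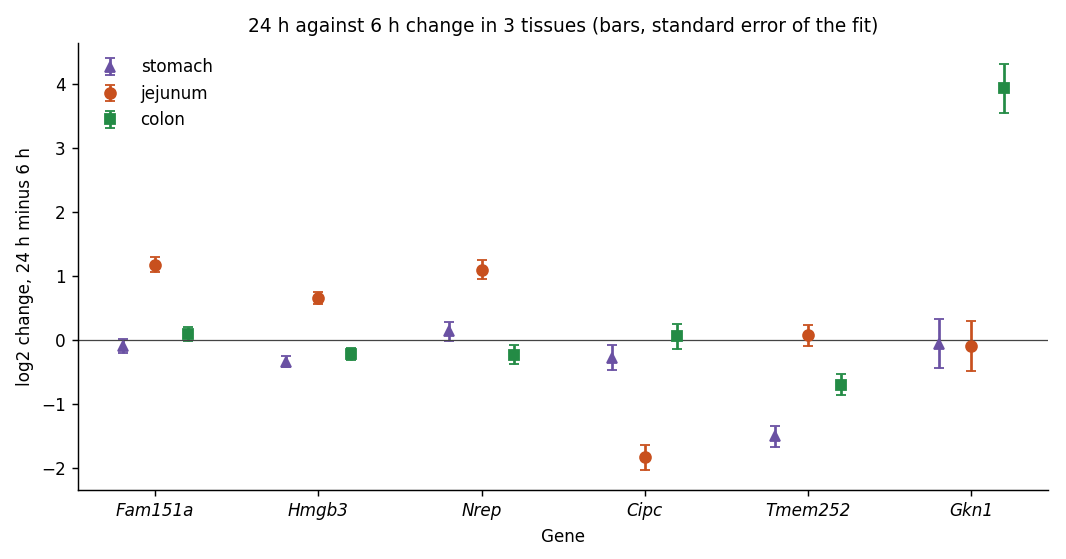
Log2 change from 6 h to 24 h (vertical axis) in stomach, jejunum and colon for 6 genes named for differences between tissues (horizontal axis); bars are standard errors of the fit of 30 arrays. The jejunum stands above both other tissues for Fam151a, Hmgb3 and Nrep and below them for Cipc. For Nrep and Cipc the difference from the stomach did not pass the limma test. Tmem252 moves most in the stomach and Gkn1 in the colon.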

How the data were processed

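The authors deposited 1 table of log2 signals for 30 Affymetrix rat arrays, made with RMA (background correction, quantile normalization and probe set summary), per the submitters' processing notes, with a version not given in the sources used here. The values were used as deposited, since array medians lay between 6.96 and 7.05. Of 31099 probe sets 57 controls were left out, and of 31042 tested 20826 carried 1 gene symbol (14217 genes), 436 several and 9780 none. Groups were taken from the sample titles. Group means of the 10 jejunum arrays were fitted with limma 3.58.1 (lmFit, eBayes) in R 4.3.3, with Benjamini-Hochberg adjustment over all tested probe sets. Differences between tissues were fitted on all 30 arrays. A gene on a list is represented by its brightest probe set in the jejunum. Genes were named as the 15 largest changes past the threshold each way, up to 4 members per list by smallest p, the 5 smallest adjusted p per tissue difference, and 16 genes always named; other list members past the threshold were added after their values were seen. The members and the 48 lists were chosen with earlier results of these data known. Promoters are RefSeq's of GRCr8. The fit was tested on simulated data with the same spread in every group, so the wider spread at 24 h was not covered. Alternatives were each array left out, only the 4 arrays, all 30 arrays, no dim probe sets, quantile normalization, trended and robust variances, array weights and a replicate block.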

Additional observations from a re-analysis of the deposited data

Results flagged for a closer look

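The change from 6 h to 24 h differed between jejunum and colon on 12 probe sets, and between jejunum and stomach on 3, by a limma test of the difference itself. Jejunum minus colon, the difference was −4.03 for Gkn1, −1.88 for Cipc, 1.08 for Fam151a, 0.87 for Hmgb3 and 1.32 for Nrep. Jejunum minus stomach, it was 1.27 for Fam151a, 0.99 for Hmgb3 and 1.58 for Tmem252. Groups of 2 arrays are too small for a test of single arrays that stand apart.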

How the results depend on the processing

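All 67 called gene probe sets in the text kept their direction in every alternative fit run. Their 24 h and 6 h arrays did not overlap, so only quantile normalization could have turned a direction. Calls and counts did change. Total calls in the jejunum, 278 in the main fit, were 0 (2143 unadjusted) with only the 4 arrays at 6 h and 24 h. They were 131 with all 30 arrays, 97 of them among the 278, and 37 with array weights, all 37 among the 278. With 1 array left out they ran from 0 to 2307. The counts 290 (no dim probe sets), 224 (quantile) and 246 (trended, robust) were within 1.5 times. Mitosis calls (9) became 0, 2, 1 and 0 to 21 in that order, matrix calls (7) 0, 3, 1 and 0 to 16, and cholesterol calls (5) 0, 2, 0 and 0 to 11. Differences from the colon (12) became 3 with only both tissues' arrays at 6 h and 24 h, 1 with array weights and 0 to 37 with 1 array left out, and those from the stomach (3) became 0 with only those arrays and 0 to 16. The cause was not tested.

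The main fit did not treat equal replicate numbers as pairs, since the labels do not say what they share. Replicate differences correlated at 0.37 between 6 h and 24 h and at −0.58 to 0.16 between other pairs of jejunum times. Whether the numbers mark something shared cannot be told from these values. With the replicate block 115 probe sets passed, with 4 mitosis, 3 matrix and 3 cholesterol genes, and 13 and 3 differences from colon and stomach.

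Signs turned for Ccng1 under quantile normalization (0.027) and, with 1 array left out, for Cdkn1a (−0.69 to 0.086), Ccng1 (−0.43 to 0.40), Top1 (−0.31 to 0.12), Gkn1 (−0.24 to 0.043) and Tmem252 (−0.014 to 0.16). Among the genes recomputed, they also turned on other probe sets of Sesn2 (−0.0040), Nid1 (−0.10), Slc8a1 (−0.030), Hlf (0.014) and Azin1 (0.015), which for Nid1, Slc8a1 and Azin1 is the opposite of a called change.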
